A study of Homo sapiens with 4 samples.

Results

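Interferon-stimulated genes and nucleic acid sensors were examined as a set of 46 genes, chosen by symbol and matched to the 20263 Ensembl gene rows of the deposited count table through a table of gene names. All 46 had a row, and 44 passed the filter on low counts and were tested. The set holds 5 sensors and adaptors (RIGI, IFIH1, DHX58, CGAS and STING1), 6 genes of the receptor and the STAT and IRF transcription factors (IFNAR1, STAT2, IRF1, IRF3, IRF7 and IRF9) and 35 effectors. The cells were MDA-MB-231, a line derived from a human triple-negative breast cancer, grown in medium with 10% fetal bovine serum. They were left for 24 h with DMSO, the solvent control, or with Neoribocic, which the series title links to a cell cycle block. The treatment protocol names Rib_CA, which was taken here to be the Neoribocic of the sample names. No dose is stated in the sources used here. Each group had 2 libraries. Nothing in the labels says that they are separate cultures, and p-values therefore measure only the scatter between these samples, which may be technical.

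Cells detect foreign or misplaced nucleic acid through cytosolic sensors: RIG-I and MDA5, the products of RIGI and IFIH1, bind viral RNA, and cGAS binds DNA and signals through STING. The sensors activate the kinase TBK1 and the factors IRF3 and IRF7, which induce interferon genes, and secreted interferon acts on the receptor chains IFNAR1 and IFNAR2. The kinases JAK1 and TYK2 then phosphorylate STAT proteins, and STAT2 joins IRF9 in the complex ISGF3, which switches on interferon-stimulated genes at a DNA element called ISRE. Many tumour lines keep a low, steady expression of these genes without added interferon.

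Library totals ran from 34774542 to 43014212 counts, and the mitochondrial share was 8.68% (replicate 1) and 21.7% (replicate 2) in DMSO and 5.76% and 7.24% with Neoribocic. All 8 markers of the mesenchymal line were above 1 CPM (counts per 1000000 counts of the library, here scaled by the TMM method) in every library, with summed levels of 9657 to 11571 CPM in DMSO and 7619 to 7954 CPM with Neoribocic. Of 6 immune cell markers, 5 stayed below 1 CPM in all libraries (CD3E at 0, PTPRC at most 0.620 CPM) while CD68 stood at 157 to 339.6 CPM; the sum was 158 to 340.0 CPM in DMSO and 266 to 313 CPM with Neoribocic. The 6 fibroblast and endothelial markers summed to 10.7 to 11.6 and 8.88 to 9.39 CPM, with CDH5 at 0. The 8 markers of luminal or HER2 lines summed to 509.8 to 683 and 554 to 687 CPM, mostly KRT19, KRT18 and ERBB2, while ESR1 and CDH1 did not reach 1 CPM.

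Set against DMSO, 22 of the 44 tested genes fell with Neoribocic and 5 rose (edgeR's quasi-likelihood test, Benjamini-Hochberg adjusted p below 0.05 over all genes), where 21.3% of all 13879 tested genes fell and 19.1% rose. The median log2 fold change of the set was -0.87, against 0.011 over all tested genes. Of the 33 tested effectors 19 fell and 2 rose, with a median of -1.0 (corrected for transcript length and GC content, -0.73). Among the 5 sensors 2 fell and 1 rose, with a median of 0.32 (corrected -0.28), and among the 6 receptor, STAT and IRF genes 1 fell and 2 rose, with a median of 0.45 (corrected -0.045), so both medians changed sign with the correction. The differences between these classes were not tested. In 26 of the 44 genes both Neoribocic libraries lay below both DMSO libraries and in 12 they lay above, against 37.3% and 37.8% of all tested genes. In bulk RNA, fewer cells expressing a gene and less of its RNA per cell cannot be told apart.

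The steepest falls were those of SAMD9 and SAMD9L, IFIT3, RIGI and HERC6, each lower by more than 2 on the log2 scale, and the largest rises those of IRF7, IFI27 and DHX58. Of the 22 falls, 14 kept their call and direction in all 17 other ways of scaling, filtering, testing or leaving out a library, and of the 5 rises 3 did, those of IRF7, DHX58 and STAT2. Without Neoribocic replicate 1, 14 genes fell and 3 rose (10.4% and 7.09% of all genes). Scaling by library totals in place of TMM moved the median of all genes by 0.17; with it 18 genes of the set fell and 6 rose (15.5% and 22.8% of all genes). Fold changes below are log2 values of Neoribocic over DMSO with the standard error of the fit, and each "corrected" value comes from the same test after a smooth trend of expression on transcript length and GC content had been removed from every library.

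**Figure D1:**
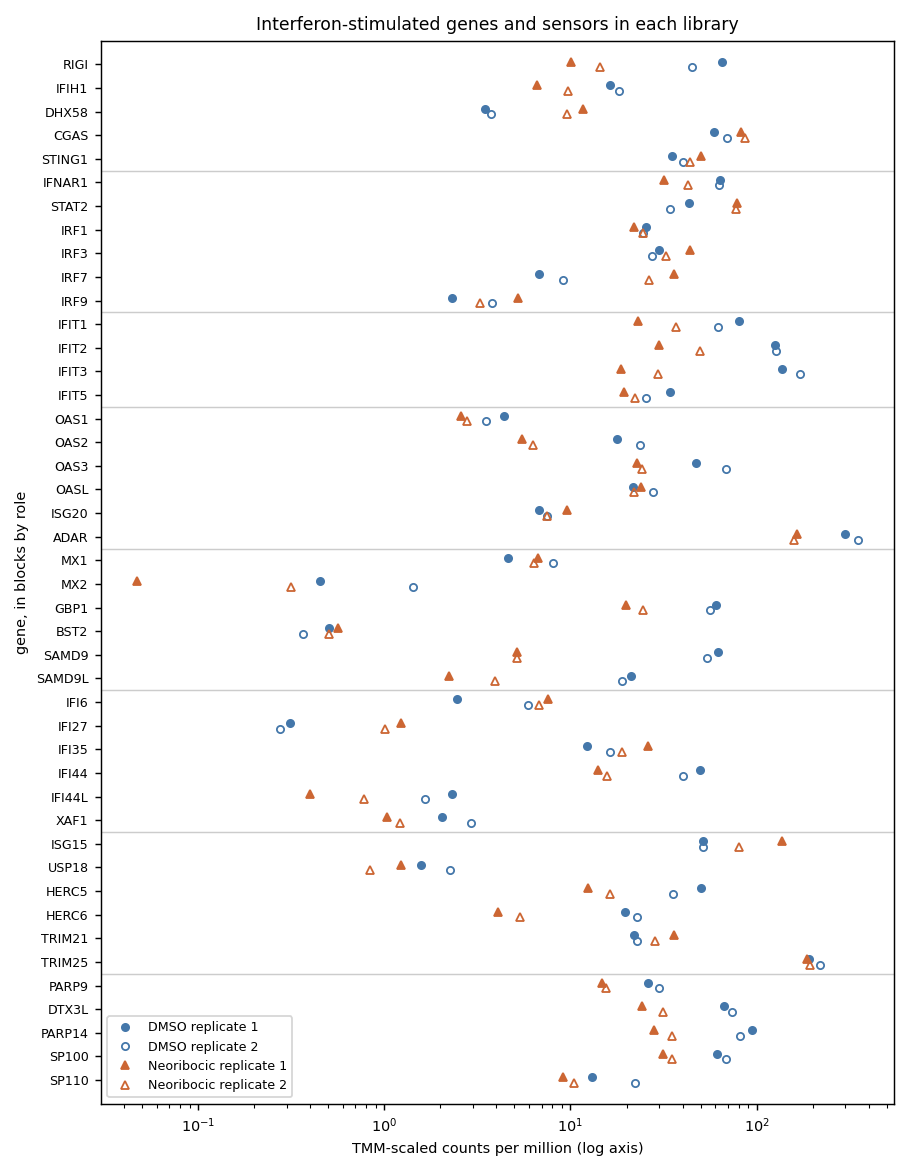
Level of each of the 44 tested genes in the 4 libraries, as TMM-scaled CPM on a log axis, with DMSO as circles and Neoribocic as triangles (filled for replicate 1, open for replicate 2) and lines between the roles. Neoribocic libraries lie to the left of both DMSO libraries in 26 genes and to the right in 12.

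Of the RNA sensors RIGI and IFIH1 fell and DHX58 rose. RIGI (ENSG00000107201), which encodes the RIG-I receptor of viral RNA, stood at 64.9 and 45.0 CPM in DMSO and at 10.1 and 14.4 CPM with Neoribocic. Both treated libraries were far below both controls, a fold change of -2.17 ± 0.29 (edgeR adjusted p = 0.00131; corrected -1.56). IFIH1, which encodes the duplex RNA sensor MDA5, stood at 16.3 and 18.3 CPM in DMSO and at 6.62 and 9.67 CPM with Neoribocic. The groups did not overlap and IFIH1 fell by 1.09 ± 0.27 (edgeR adjusted p = 0.0137), but the call was lost without DMSO replicate 2 (-0.99, edgeR adjusted p = 0.0554), without Neoribocic replicate 1 (-0.83, edgeR adjusted p = 0.0993) and with the correction (-0.66, edgeR adjusted p = 0.0553). DHX58 (ENSG00000108771) encodes LGP2, a relative of RIG-I and MDA5 that lacks their signalling domain and modulates them. It went the other way, from 3.50 and 3.75 CPM to 11.7 and 9.54 CPM, a rise of 1.55 ± 0.27 (edgeR adjusted p = 0.00341; corrected 1.11) from a low level.

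The DNA sensing pair did not pass the threshold. CGAS, the enzyme that binds cytosolic DNA and makes the messenger cGAMP, stood at 58.7 and 68.9 CPM in DMSO and at 82.8 and 86.7 CPM with Neoribocic. Its treated libraries were both above the controls, by 0.41 ± 0.20 (edgeR adjusted p = 0.129), and the gene passed with the correction (0.79, edgeR adjusted p = 0.0187). STING1, the membrane adaptor that cGAMP activates, stood at 35.1 and 40.4 CPM in DMSO and at 50.02 and 43.9 CPM with Neoribocic. The groups were separate but close, at 0.32 ± 0.21 (edgeR adjusted p = 0.260), and the correction turned the sign (-0.28).

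Among the receptor, STAT and IRF genes the factors IRF7 and STAT2 rose. IRF7 (ENSG00000185507), the factor that amplifies interferon gene expression, stood at 6.77 and 9.09 CPM in DMSO and at 36.2 and 26.5 CPM with Neoribocic. Every treated library exceeded every control, a rise of 1.98 ± 0.27 (edgeR adjusted p = 0.00151; corrected 1.24, edgeR adjusted p = 0.00594). STAT2 (ENSG00000170581), the subunit of ISGF3 that carries its activation domain, stood at 43.3 and 34.4 CPM in DMSO and at 78.7 and 77.3 CPM with Neoribocic. The treated libraries agreed closely and lay above both controls, a rise of 1.01 ± 0.21 (edgeR adjusted p = 0.00742; corrected 0.93). IFNAR1, a chain of the receptor for type I interferon, stood at 63.5 and 62.6 CPM in DMSO and at 31.8 and 42.8 CPM with Neoribocic. It fell by 0.76 ± 0.22 (edgeR adjusted p = 0.0278) without overlap, but the corrected value was -0.039 (edgeR adjusted p = 0.856). The call was also lost with upper-quartile factors and library totals (-0.63 and -0.58, edgeR adjusted p = 0.0537 and 0.129) and without DMSO replicate 1, DMSO replicate 2 or Neoribocic replicate 1 (edgeR adjusted p = 0.0852, 0.0849 and 0.180).

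The remaining IRF genes did not pass. IRF3, the factor that the sensors activate directly, stood at 29.7 and 27.4 CPM in DMSO and at 44.1 and 32.6 CPM with Neoribocic, a fold change of 0.42 ± 0.24 (corrected -0.31). IRF9, the DNA-binding subunit of ISGF3, stood at 2.31 and 3.81 CPM in DMSO and at 5.23 and 3.29 CPM with Neoribocic, with overlapping groups and a fold change of 0.48 ± 0.37 (corrected -0.052). IRF1, a factor of the interferon gamma response, stood at 25.3 and 24.4 CPM in DMSO and at 22.0 and 24.4 CPM with Neoribocic, also overlapping, at -0.10 ± 0.22. Exon bases are shared with a gene on the opposite strand for 19.3% of IRF3 (with BCL2L12) and 22.0% of IRF1, and with a gene on the same strand for 48.4% of IRF9; the sources used here do not say whether the counts separate such genes.

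**Figure D2:**
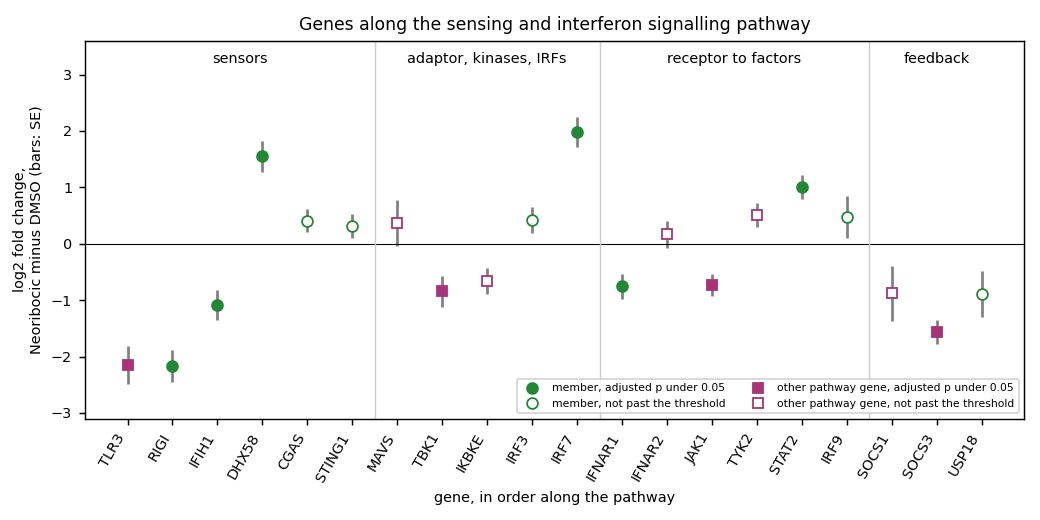
Log2 fold change (Neoribocic minus DMSO) with its standard error for genes in order along the sensing and signalling pathway; circles are members, squares are other pathway genes, and filled symbols passed the edgeR threshold. RIGI at -2.17 and TLR3 at -2.15 are the lowest, and IRF7 at 1.98 and DHX58 at 1.55 the highest.

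The IFIT genes encode RNA-binding proteins that block viral translation, and they neighbour each other on chromosome 10. Of the 4 genes 3 fell, where 21.3% of all tested genes did. IFIT3 (ENSG00000119917), whose product stabilises IFIT1, stood at 137 and 171 CPM in DMSO and at 18.6 and 29.5 CPM with Neoribocic, with both treated libraries far below both controls. It fell by 2.68 ± 0.28 (edgeR adjusted p = 7.16e-04; corrected -2.46). IFIT2 stood at 126 and 127 CPM in DMSO and at 29.7 and 49.8 CPM with Neoribocic, and its controls were nearly equal. It fell by 1.67 ± 0.27 (edgeR adjusted p = 0.00267; corrected -1.22). IFIT1 stood at 80.2 and 62.3 CPM in DMSO and at 23.0 and 36.9 CPM with Neoribocic, without overlap but with a wider spread. It fell by 1.25 ± 0.28 (edgeR adjusted p = 0.00910; corrected -1.13), a call lost without DMSO replicate 1 (-1.06, edgeR adjusted p = 0.0523) or Neoribocic replicate 1 (-0.94, edgeR adjusted p = 0.0620). IFIT5 was at -0.53 ± 0.24 and did not pass (edgeR adjusted p = 0.113; corrected 0.058). In all 4 genes Neoribocic replicate 1 was the lowest library.

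Among enzymes acting on nucleotides and RNA, OAS2, OAS3 and ADAR fell. The OAS proteins make oligoadenylates that activate RNase L. OAS2 stood at 17.7 and 23.7 CPM in DMSO and at 5.49 and 6.32 CPM with Neoribocic and fell by 1.81 ± 0.26 (edgeR adjusted p = 0.00169; corrected -1.57). OAS3, with the highest GC content of any gene of the set that fell (54.3%), stood at 47.3 and 68.2 CPM in DMSO and at 22.8 and 24.2 CPM with Neoribocic. It fell by 1.30 ± 0.24 (edgeR adjusted p = 0.00473), and the correction left it at -1.20. ADAR, which edits adenosine to inosine in duplex RNA and so keeps cellular RNA from triggering MDA5, stood at 299 and 352 CPM in DMSO and at 165 and 159 CPM with Neoribocic. No treated library approached a control, and ADAR fell by 1.0 ± 0.19 (edgeR adjusted p = 0.00471; corrected -0.68).

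The others in this role were low or did not pass. OAS1 was at -0.55 ± 0.30 (edgeR adjusted p = 0.170, or 0.0499 with the correction, at -0.92). OASL, a relative without synthetase activity, was at -0.11 ± 0.23, and the exonuclease gene ISG20 at 0.26 ± 0.26 (corrected -0.22). RSAD2, the gene of the antiviral radical enzyme viperin, and its chromosomal neighbour CMPK2 were not tested. RSAD2 had 11 and 6 counts in DMSO and 7 and 0 with Neoribocic, and CMPK2 had 0 counts in all libraries, which in each library allows up to 0.0697 to 0.0863 CPM of the library total, for counting error only.

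Among GTPases and restriction factors the neighbouring genes SAMD9 and SAMD9L on chromosome 7 showed the largest falls of the set before the correction. SAMD9L (-2.70) was close to IFIT3 (-2.68), and with the correction IFIT3 lay lower (-2.46 against -1.87). SAMD9 (ENSG00000205413), which encodes a restriction factor of poxviruses, stood at 61.7 and 54.2 CPM in DMSO and at 5.13 and 5.18 CPM with Neoribocic. It fell by 3.49 ± 0.24 (edgeR adjusted p = 4.80e-04; corrected -2.65), and its treated libraries were almost equal. SAMD9L (ENSG00000177409) stood at 21.2 and 18.96 CPM in DMSO and at 2.24 and 3.92 CPM with Neoribocic and fell by 2.70 ± 0.32 (edgeR adjusted p = 9.40e-04; corrected -1.87). GBP1, a guanylate-binding GTPase of the interferon gamma response, stood at 60.4 and 55.9 CPM in DMSO and at 19.9 and 24.4 CPM with Neoribocic. The groups were well apart and GBP1 fell by 1.39 ± 0.22 (edgeR adjusted p = 0.00247; corrected -1.02).

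The dynamin-like GTPase genes MX1 and MX2 did not pass. MX1 stood at 4.60 and 8.05 CPM in DMSO and at 6.69 and 6.38 CPM with Neoribocic, with the treated libraries between the controls. MX2 had only 16 and 47 counts in DMSO and 2 and 15 with Neoribocic, at -2.32 ± 0.88 (edgeR adjusted p = 0.0713), and it passed without Neoribocic replicate 2 (-4.22, edgeR adjusted p = 0.0417). BST2, the gene of the virus tether tetherin, was scarcely detected, at 0.366 to 0.565 CPM. These families have close relatives (SAMD9 and SAMD9L, GBP1 and GBP3, MX1 and MX2), and the sources used here do not say how reads shared by relatives were counted.

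Of the IFI-named genes, IFI44 and IFI44L fell and IFI27 was called higher, but none was called higher with the correction. IFI44, whose product is a cytoplasmic antiviral protein, stood at 49.7 and 40.4 CPM in DMSO and at 14.1 and 15.7 CPM with Neoribocic. It fell by 1.60 ± 0.23 (edgeR adjusted p = 0.00172), and the correction scarcely moved it (-1.55). Its neighbour IFI44L stood at 2.31 and 1.65 CPM in DMSO and at 0.400 and 0.779 CPM with Neoribocic, and fell by 1.74 ± 0.47 (edgeR adjusted p = 0.0197). That call was lost with the correction (-0.98), without DMSO replicate 1 (-1.47, edgeR adjusted p = 0.0822) and without Neoribocic replicate 1 (-1.33, edgeR adjusted p = 0.138). XAF1, a pro-apoptotic gene that antagonises XIAP, stood at 2.03 and 2.93 CPM in DMSO and at 1.04 and 1.22 CPM with Neoribocic and fell by 1.13 ± 0.38 (edgeR adjusted p = 0.0417). Its call was lost under 9 alternatives, among them without DMSO replicate 2 (-0.83, edgeR adjusted p = 0.156), Neoribocic replicate 1 (edgeR adjusted p = 0.204) or Neoribocic replicate 2 (edgeR adjusted p = 0.111), with DESeq2 (adjusted p = 0.0695) and with the correction (-0.70); 38.3% of its exon bases lie opposite another gene.

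IFI27, a short gene of a mitochondrial protein, rose by 1.92 ± 0.50 (edgeR adjusted p = 0.0167), from 11 and 9 counts in DMSO to 52 and 48 with Neoribocic. Libraries of a group were close to each other, but the call was lost without DMSO replicate 2 (1.85, edgeR adjusted p = 0.0531), Neoribocic replicate 1 (1.79, edgeR adjusted p = 0.142) or Neoribocic replicate 2 (2.05, edgeR adjusted p = 0.0633), and with the correction (0.91, edgeR adjusted p = 0.154). IFI6, its relative, stood at 2.45 and 5.91 CPM in DMSO and at 7.58 and 6.78 CPM with Neoribocic. DMSO replicate 2 lay near the treated libraries and IFI6 was at 0.78 ± 0.41 (edgeR adjusted p = 0.159; corrected -0.061), passing without that library (1.56, edgeR adjusted p = 0.0157). IFI35, whose product binds the interferon-induced protein NMI, was at 0.66 ± 0.26 (edgeR adjusted p = 0.0765; corrected -0.16) and passed with upper-quartile factors (0.77, edgeR adjusted p = 0.0391) and with library totals (0.84, edgeR adjusted p = 0.0403).

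ISG15 rose and its ligase gene HERC5 fell, and the rise of ISG15 was not seen with the length and GC correction. ISG15 (ENSG00000187608), a ubiquitin-like modifier, stood at 51.3 and 51.3 CPM in DMSO and at 137 and 80.7 CPM with Neoribocic. The controls were equal and both treated libraries higher, a rise of 1.09 ± 0.27 (edgeR adjusted p = 0.0145). With the correction ISG15 stood at -0.077 (edgeR adjusted p = 0.713), and its transcript is the shortest of the tested genes (711 bases), with a GC content of 64.7%. The call was also lost without Neoribocic replicate 1 (0.66, edgeR adjusted p = 0.105), DMSO replicate 1 (edgeR adjusted p = 0.0777) or DMSO replicate 2 (edgeR adjusted p = 0.0780). HERC5 (ENSG00000138646), the main ISG15 ligase, stood at 50.1 and 35.5 CPM in DMSO and at 12.5 and 16.3 CPM with Neoribocic, clear of any overlap. It fell by 1.57 ± 0.27 (edgeR adjusted p = 0.00314; corrected -1.17). Its neighbour HERC6 stood at 19.5 and 22.8 CPM in DMSO and at 4.10 and 5.37 CPM with Neoribocic and fell by 2.16 ± 0.26 (edgeR adjusted p = 0.00101; corrected -1.81).

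The other ubiquitin genes did not pass. USP18, the protease that removes ISG15 and restrains the interferon receptor, stood at 1.58 and 2.26 CPM in DMSO and at 1.22 and 0.842 CPM with Neoribocic, a fold change of -0.89 ± 0.41 (edgeR adjusted p = 0.113, or 0.0497 with the correction, at -1.15). TRIM21, a ligase and intracellular antibody receptor, was at 0.54 ± 0.23 (edgeR adjusted p = 0.0902), and past the threshold with upper-quartile factors (0.66, edgeR adjusted p = 0.0427). TRIM25, a ligase that promotes RIG-I signalling, stood at 191 and 220.1 CPM in DMSO and at 185 and 194 CPM with Neoribocic. Its groups overlapped, and the fold change was -0.12 ± 0.19.

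All 5 genes of ADP-ribosylation and nuclear bodies fell, where 21.3% of all tested genes did. With the correction 3 of them kept the call, where 19.2% of all tested genes fell. PARP9 and DTX3L encode partners in a complex that joins ADP-ribosylation to ubiquitin and lie head to head on chromosome 3, with PARP14 nearby. DTX3L stood at 66.5 and 73.6 CPM in DMSO and at 24.3 and 31.2 CPM with Neoribocic and fell by 1.34 ± 0.22 (edgeR adjusted p = 0.00298; corrected -0.73). PARP14, a large mono-ADP-ribosyltransferase gene, stood at 94.7 and 80.9 CPM in DMSO and at 28.2 and 35.1 CPM with Neoribocic and fell by 1.47 ± 0.22 (edgeR adjusted p = 0.00194; corrected -0.67). In both genes the treated libraries were well below the controls. PARP9 fell by 0.89 ± 0.22 (edgeR adjusted p = 0.0145), from 26.1 and 30.0 to 14.8 and 15.4 CPM. It lost its call with the correction (-0.52, edgeR adjusted p = 0.0740), with library totals (edgeR adjusted p = 0.0681) and without DMSO replicate 2 (-0.78, edgeR adjusted p = 0.0627), Neoribocic replicate 1 (edgeR adjusted p = 0.0839) or Neoribocic replicate 2 (edgeR adjusted p = 0.0516).

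SP100, a founding component of PML nuclear bodies, stood at 61.5 and 68.3 CPM in DMSO and at 31.5 and 35.1 CPM with Neoribocic and fell by 0.96 ± 0.21 (edgeR adjusted p = 0.00799; corrected -0.63), a call lost without Neoribocic replicate 1 (-0.88, edgeR adjusted p = 0.0631). Its relative SP110 fell by 0.85 ± 0.30 at the edge of the threshold (edgeR adjusted p = 0.0488; corrected -0.80, edgeR adjusted p = 0.0721), from 13.1 and 22.3 to 9.11 and 10.4 CPM. The call was lost under 8 alternatives, among them without DMSO replicate 2 (-0.41, edgeR adjusted p = 0.281), Neoribocic replicate 1 (edgeR adjusted p = 0.216) or Neoribocic replicate 2 (edgeR adjusted p = 0.112); 20.9% of SP110 exon bases lie opposite other genes, among them SP140.

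**Figure D3:**
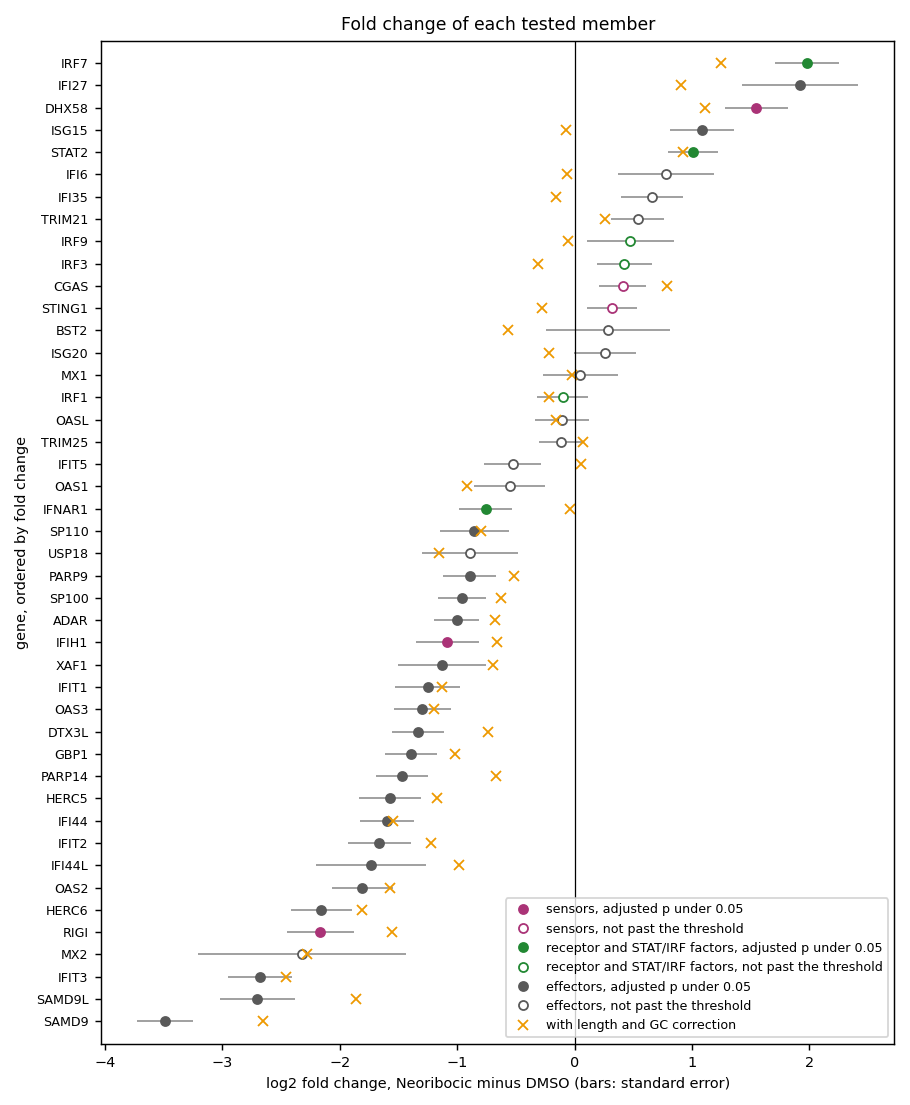
Log2 fold change (Neoribocic minus DMSO) of the 44 tested genes with its standard error, ordered by size and coloured by class, filled where the edgeR adjusted p was below 0.05; crosses give the value with the length and GC correction. The lower end holds mainly effectors, down to -3.49 for SAMD9, with the sensor RIGI at -2.17 among them. ISG15 moves from 1.09 to -0.077 with the correction.

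The ISRE, to which ISGF3 and IRF proteins bind, was searched for on both strands as GAAA, any 2 bases and GAAA again, in the 250 bases before each gene's start in RefSeq (GRCh38.p14). Promoters were found for 36 of the 46 genes, and 19 of the 36 held a match (52.8%). Among the 27305 genes with a promoter of that length on the chromosomes searched 3.71% did, and among the 11039 tested ones 3.43%. The search did not cover every chromosome. A gene with several starts counts once. The set was chosen as interferon-stimulated genes and sensors, so a high share follows from that choice and is no result of these libraries. A match was found in 11 of 20 genes that fell, in 2 of 3 that rose (ISG15 and IFI27) and in 5 of 11 that did not pass. RSAD2, which was not tested, had the remaining match. The calls of ISG15 and IFI27 were lost with the length and GC correction (-0.077 and 0.91). Of the 3 rises that kept their call in all alternatives, STAT2 had no match, and no promoter was found for IRF7 and DHX58. Allowing 1 mismatch gave 27 of 36, against 33.8% of the 27305 genes. The GAS element, bound by STAT dimers and searched as TTC, any 3 bases and GAA, was in 9 of 36, against 8.09% of the 27305 genes. It was in 2 of 20 genes that fell, 1 of 3 that rose and 6 of 11 that did not pass. Among the 11039 tested genes the share was 7.7%. The sequences below are on the gene's strand, with an ISRE match of each in capitals. They are shown because elements of this form stand before genes that fell (IFIT3, IFIT1, SAMD9, GBP1 and PARP9), that were called higher (ISG15 and IFI27) and that did not pass (ISG20).
IFIT3 chr10:89332453-89332512 (+): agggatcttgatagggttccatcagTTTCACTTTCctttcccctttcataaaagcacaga
IFIT1 chr10:89392482-89392541 (+): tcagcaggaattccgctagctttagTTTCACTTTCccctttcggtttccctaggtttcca
SAMD9 chr7:93118081-93118140 (-): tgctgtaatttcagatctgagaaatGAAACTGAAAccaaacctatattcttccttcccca
GBP1 chr1:89065301-89065360 (-): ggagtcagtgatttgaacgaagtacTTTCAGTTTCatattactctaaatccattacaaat
PARP9 chr3:122564307-122564366 (-): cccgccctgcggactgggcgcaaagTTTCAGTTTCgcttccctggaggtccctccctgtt
ISG15 chr1:1013365-1013424 (+): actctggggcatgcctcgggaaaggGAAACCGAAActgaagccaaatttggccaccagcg
IFI27 chr14:94110616-94110675 (+): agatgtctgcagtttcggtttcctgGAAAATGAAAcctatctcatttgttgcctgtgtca
ISG20 chr15:88638922-88638981 (+): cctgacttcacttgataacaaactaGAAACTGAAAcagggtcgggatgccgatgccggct

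The element of SAMD9, which fell, has the same letters as that of ISG20, which did not pass, and reads on the other strand as those of GBP1 and PARP9. The matches in capitals of IFIT3 and IFIT1 share their letters as well. In ISG15 the match shown overlaps another match on the same strand. The stretches of IFIT1 and IFI27 each hold a further match, left in lower case. Matches are descriptions of these letters, not evidence of binding, and no binding was measured in these libraries.

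Other genes of the pathway, from a list of 79 that are no members, fell in 20 of 68 tested cases and rose in 7, where 21.3% and 19.1% of all tested genes did. Their median was -0.12. With the correction 15 fell and 7 rose (19.2% and 16.4% of all tested genes), with a median of -0.31. The 8 interferon genes of that list (IFNA1, IFNB1, IFNE, IFNK, IFNG and IFNL1 to IFNL3) were not tested: 7 had 0 counts in all libraries, and IFNL1 had 8 counts, all in Neoribocic replicate 2. TLR3, the endosomal sensor of duplex RNA, stood at 11.3 and 9.30 CPM in DMSO and at 1.69 and 2.93 CPM with Neoribocic and fell by 2.15 ± 0.34 (edgeR adjusted p = 0.00232; corrected -1.39), a direction shared with RIGI.

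Kinase, factor and feedback genes outside the set were also among the falls. JAK1 fell by 0.73, the sensor kinase gene TBK1 by 0.84 and the repressor IRF2 by 0.71 (edgeR adjusted p = 0.0180, 0.0373 and 0.0350), but none kept its call with the correction (-0.32, -0.38 and -0.54). JAK1 also lost it without DMSO replicate 1, DMSO replicate 2 or Neoribocic replicate 1 (edgeR adjusted p = 0.0659, 0.0574 and 0.129), TBK1 without DMSO replicate 1 or Neoribocic replicate 1 (-0.57 and -0.62, edgeR adjusted p = 0.184 and 0.209), and IRF2 with each library left out in turn (edgeR adjusted p = 0.0837 to 0.150). Upper-quartile factors and library totals also ended the calls of IRF2 (edgeR adjusted p = 0.0601 and 0.162) and TBK1 (edgeR adjusted p = 0.0572 and 0.121), and library totals that of JAK1 (edgeR adjusted p = 0.0929). SOCS3, a feedback inhibitor of JAK kinases, stood at 59.7 and 64.3 CPM in DMSO and at 21.8 and 20.3 CPM with Neoribocic and fell by 1.56 ± 0.21 (edgeR adjusted p = 0.00139; corrected -2.01). PIAS1, a SUMO ligase that restrains STAT signalling, fell by 1.87 ± 0.26 (edgeR adjusted p = 0.00145; corrected -1.0); 32.3% of its exon bases lie opposite other genes. The receptor chain gene IL10RB rose by 0.72 (edgeR adjusted p = 0.0278), a call lost with each of the 4 libraries left out in turn (edgeR adjusted p = 0.0548 to 0.132), and IFNAR2 was at 0.17 ± 0.24; both share exons with a readthrough transcript of the pair.

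Among 47 tested interferon-induced genes outside the set, 13 fell and 6 rose, against 21.3% and 19.1% of all tested genes; with the correction 10 fell and 5 rose, against 19.2% and 16.4%. The 4 falls with the smallest p were those of the helicase gene DDX60 (-2.93), the DNA-binding sensor gene IFI16 (-1.44), GBP3 (-1.46) and DDX60L (-1.50), with corrected values of -2.11, -1.10, -1.06 and -0.66, all past the threshold. SLFN5, a gene of the schlafen family, rose from 25.1 and 23.5 to 98.0 and 135 CPM, by 2.26 ± 0.23 (edgeR adjusted p = 6.86e-04), and the correction raised this to 3.26. PSMB9 of the immunoproteasome, the helicase gene HELZ2 and the peptide transporter gene TAP1 rose by 1.41, 1.35 and 0.89 (corrected 0.48, 0.92 and 0.53, of which TAP1 passed). Without Neoribocic replicate 1 these 3 did not pass (edgeR adjusted p = 0.108, 0.0592 and 0.0881); PSMB9 also did not without DMSO replicate 1 or 2 (edgeR adjusted p = 0.0792 and 0.0503), nor TAP1 without DMSO replicate 2 (edgeR adjusted p = 0.0618).

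Direction within the set ran with transcript composition. The 5 genes that rose had GC contents of 51.6% to 66.8% and lengths of 711 to 3259 bases, and the 22 that fell 36.0% to 54.3% and 1687 to 7915 bases. Across the 44 tested genes the Spearman correlation of the fold change was 0.75 with GC content and -0.61 with length, against 0.45 and -0.40 across 13862 genes; genes of a library share its preparation and are not independent replicates. With Neoribocic, the log2 difference of replicate 2 from replicate 1 correlated over the 44 genes at -0.78 with GC content and 0.58 with length. Over the 13862 genes these values were -0.51 and 0.42. Within DMSO they were 0.38 and -0.10 over the 44 genes, and 0.30 and -0.10 over the 13862. With the correction 18 of the 44 genes fell and 4 rose (percentages over all tested genes 19.2% and 16.4%), with a set median of -0.65; of the original calls 16 falls and 3 rises remained. SAMD9, IFIT3, SAMD9L, HERC6, OAS2 and RIGI stayed at or below -1.56 after it.

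**Figure D4:**
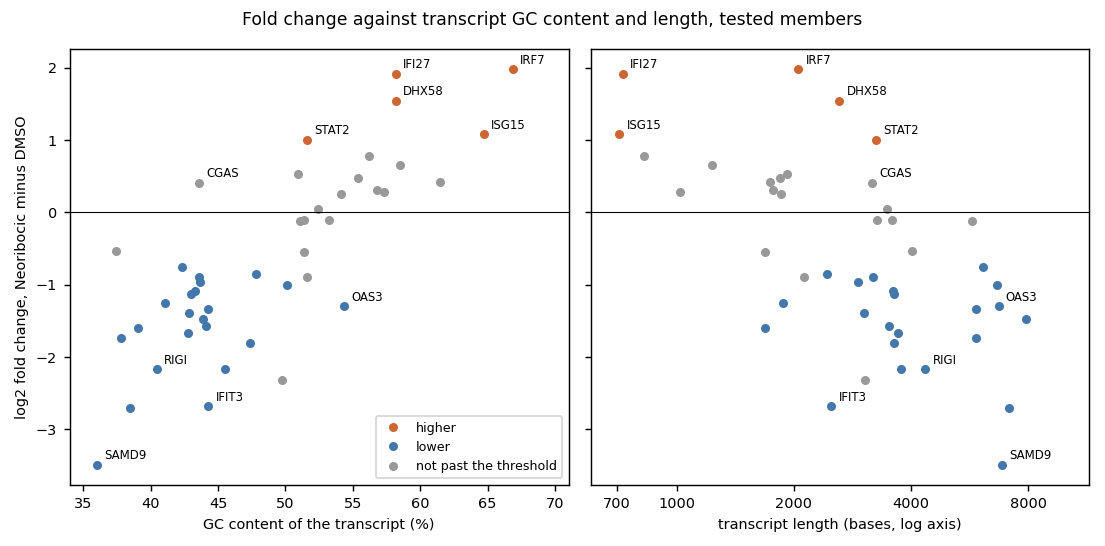
Log2 fold change (Neoribocic minus DMSO) of the 44 tested genes against the GC content (left) and length (right, log axis) of 1 GENCODE transcript per gene, coloured by the edgeR call. The genes that rose lie above 51.6% GC or at it, and SAMD9, with the lowest GC content (36.0%), has the lowest fold change.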

How the data were processed

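Messenger RNA libraries of MDA-MB-231 cells (2 per group, each from 1.4 µg of total RNA) were deposited by the authors as raw counts per Ensembl gene. The builds named, GRCm38 and mm10, are mouse, per the submitters' processing notes, while the IDs are human (aligner, counter, strand handling: not given in the sources used here). Of counts below 20, 62.3% to 65.4% were even; the cause was not tested. Gene lists and members were chosen with earlier results of these data known. All 46 members could be named; values per library are printed for those past the threshold and for sensors, receptor and STAT/IRF genes, and of the other induced genes the 4 with the smallest p per direction. Of the pathway and marker lists, 2 genes are not reported here by name.

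All 20263 genes entered edgeR 4.0.16 (R 4.3.3): filterByExpr by group, TMM factors, robust quasi-likelihood fit with group as the only term, Benjamini-Hochberg adjustment over 13879 genes, threshold 0.05. The standard error is the fold change divided by the square root of F. Transcript length and GC content came from GENCODE release 29 (the principal transcript, the longest where several); the correction entered a surface fitted with mgcv 1.9.3 as offsets. Scripts were tested on simulated data. Scaled by library totals alone, replicate counts differed beyond counting noise in 73.3% (DMSO) and 68.5% (Neoribocic) of genes. These shares include differences of scale that TMM removes, with TMM factors of 1.02 and 0.869 for DMSO replicates 1 and 2. Alternatives included DESeq2 1.42.0, limma-voom (limma 3.58.1), other scalings and filters, a replicate block and each library left out. The precision is limited by 2 libraries per group.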

Additional observations from a re-analysis of the deposited data

How the results depend on the processing

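Across the 17 alternatives to the test at a threshold of 0.05, 14 of 22 falls and 3 of 5 rises in the set kept call and direction. Leaving out 1 library gave 3 to 4 rises and 14 to 20 falls in the set, and 2 to 6 rises and 12 to 17 falls among other pathway genes; the lowest values of each were without Neoribocic replicate 1. Calls over all tested genes fell too, to 7.09% to 15.8% higher and 10.4% to 16.8% lower, from 19.1% and 21.3%. At a threshold of 0.01 the set had 3 rises and the other pathway genes 1, where 8.20% of all genes rose, and upper-quartile factors gave the latter 11, where 24.0% did. Upper-quartile factors and library totals moved the median fold change of all genes by 0.12 and 0.17, and all calls from 2650 higher and 2960 lower to 3329 and 2532, and to 3168 and 2149. Labels do not say that the replicate number marks a shared batch, and same-numbered libraries deviated with a correlation of -0.05 across genes. With the replicate block the set had 6 rises and 23 falls and other pathway genes 7 and 18, against 19.3% higher and 21.0% lower over all genes; the call of IRF2 was lost (-0.71, edgeR adjusted p = 0.0501), and MX2 (-2.51, edgeR adjusted p = 0.00980) and IFI6 (0.90, edgeR adjusted p = 0.0485) passed with it. Signs turned with the length and GC correction, without and with the block, for BST2 (-0.56 and -0.55), IFI35 (-0.16 and -0.16), IFIT5 (0.058 and 0.062), IRF3 (-0.31 and -0.31), IRF9 (-0.052 and -0.049), ISG15 (-0.077 and -0.082), ISG20 (-0.22 and -0.22), STING1 (-0.28 and -0.28) and TRIM25 (0.074 and 0.075), and without the block for IFI6 (-0.061) and MX1 (-0.019). Signs also turned with upper-quartile factors and library totals for IRF1 (0.025 and 0.072), OASL (0.012 and 0.076) and TRIM25 (0.0039 and 0.062), and when 1 library was left out for MX1 (-0.30 to 0.52) and OASL (-0.28 to 0.097). Apart from ISG15 none of these genes was called, and the cause was not tested. A library left alone in its group is assumed to vary like the other group. With all counts halved, IFI27 (1.91) and IFI44L (-1.78) kept their calls.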

Other observations

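Per kilobase of transcript, ISG15 was the most abundant of the 44 tested genes in DMSO and with Neoribocic (group means of 72.2 and 153 CPM per kilobase), while IFIT3 went from rank 2 (61.8) to rank 14 (9.64). CGAS and STING1 moved from ranks 10 and 9 to 3 and 4, although neither passed the edgeR threshold. IRF7 went from rank 32 to 11 and SAMD9 from 23 to 38. Ranks were not tested.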
